A study of Rattus norvegicus with 9 samples.

Results

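The smooth muscle contractile genes of rat endometrium were examined as a set of 10 members: Cnn1, Acta2, Actg2, Myh11, Tagln, Des, Smtn, Lmod1, Myocd and Mylk. Members were the rows of the expression table that carry those gene symbols. All 10 were found, with 1 row each among 22250 rows, and all 10 were among the 14232 genes with enough reads to be tested. Messenger RNA selected with poly-T beads was sequenced in 9 libraries from female Sprague-Dawley rats aged 10 weeks, in 3 groups of 3 libraries. The LER+LIG rats were first dosed for 10 days with hydroxyurea, a blocker of DNA synthesis, at 450 mg/kg each day by gavage, and from day 4 of that course also with subcutaneous adrenaline, 0.3 mg/kg each day. After mating they had LIG, which the series title names as ligustilide, at 40 mg/kg each day by gavage, starting on gestation day 0.5. The LER rats had the same hydroxyurea and adrenaline and then olive oil. The NER rats had saline by the same routes and then olive oil. The labels give the tissue as uterus or endometrial tissue, give no day of collection, and do not say that the libraries of a group came from different animals. The p-values therefore measure the spread between these libraries, which may be in part technical.

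Smooth muscle shortens when a rise in calcium activates myosin light chain kinase, the product of Mylk, and the phosphorylated light chains let myosin filaments pull on actin filaments. The genes of this apparatus are switched on together by serum response factor, which binds a short DNA element called the CArG box, and by its partner myocardin. In the uterus the bulk of such muscle lies in the myometrium, outside the endometrium, and the endometrium itself holds smooth muscle in the walls of its arteries. Acta2 and Tagln are also made by activated fibroblasts, and Des by decidualising stromal cells of rodents.

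The stretches of DNA around the transcription starts of 3 members are shown because the CArG box is the element that members of this set are known to share. RefSeq windows of assembly GRCr8, from 250 bases before to 50 bases after the start, were available for 6 of the 10 members, and for Actg2 and Mylk the annotated start lay inside the gene. No exact CArG box was in the 6 windows, against 1.64% of all 33469 windows of that kind. With 1 mismatch allowed, a box was in 2 of the 6 windows, against 21.3% of all windows, both strands being covered because the motif is its own reverse complement. The window of Acta2 held 2 such boxes, which 3.80% of all windows did, and that of Smtn held 1. In the sequences, 5′ to 3′ on the gene's strand, capitals mark these boxes. They lie at -134 to -125 and at -84 to -75 from the start in Acta2, and at -110 to -101 in Smtn. The windows are chr1:241172454-241172753 on the minus strand for Acta2, chr14:82644465-82644764 on the minus strand for Smtn, and chr8:28908187-28908486 on the plus strand for Cnn1, whose window held none.
Acta2: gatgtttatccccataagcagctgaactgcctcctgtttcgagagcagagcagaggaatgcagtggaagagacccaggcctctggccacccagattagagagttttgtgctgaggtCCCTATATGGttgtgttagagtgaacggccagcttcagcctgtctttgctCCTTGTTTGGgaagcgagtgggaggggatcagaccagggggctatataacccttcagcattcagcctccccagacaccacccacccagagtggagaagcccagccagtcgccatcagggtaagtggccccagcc
Smtn: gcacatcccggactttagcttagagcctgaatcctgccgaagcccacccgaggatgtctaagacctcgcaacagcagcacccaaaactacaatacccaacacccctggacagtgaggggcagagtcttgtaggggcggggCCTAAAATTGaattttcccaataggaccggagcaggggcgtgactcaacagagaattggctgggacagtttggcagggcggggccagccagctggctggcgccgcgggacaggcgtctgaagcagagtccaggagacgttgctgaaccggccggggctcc
Cnn1: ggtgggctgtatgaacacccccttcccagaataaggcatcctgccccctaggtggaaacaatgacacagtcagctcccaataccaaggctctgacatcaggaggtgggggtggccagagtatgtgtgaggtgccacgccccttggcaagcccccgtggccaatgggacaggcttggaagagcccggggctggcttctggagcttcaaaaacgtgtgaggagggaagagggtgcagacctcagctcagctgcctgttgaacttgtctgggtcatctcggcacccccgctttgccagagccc
A match to the motif is only a likeness in letters, and its absence from a window says nothing about the factor.

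Library totals lay between 13241537 and 15354085 reads assigned to genes. Levels are given as CPM, the reads of a gene for every 1000000 reads of its library, after scaling between libraries by the trimmed mean of M values (TMM). The members took 1.14% to 1.79% of all reads in LER+LIG libraries, 1.75% to 2.40% in LER libraries and 1.94% to 2.24% in NER libraries. The exact binomial 95% interval of the lowest share was 1.136% to 1.147%, so counting error is small beside the spread between libraries. In such whole tissue, fewer cells of a type and less RNA per cell cannot be told apart. Replicates 2 and 3 of LER+LIG and replicate 3 of NER stood apart from the other 6 libraries in C3. This complement gene, which oestrogen induces in rat uterine epithelium, had 13057 and 2174 CPM in the 2 LER+LIG libraries and 4350.1 CPM in the NER library, against 8.64 to 25.4 CPM in the other 6. A list of 7 hormone-responsive uterine genes did not set these 3 libraries together. Its median log2 difference from the LER mean was -0.79 and 0.73 in the 2 LER+LIG libraries and 0.84 in the NER library. LER+LIG replicate 1 stood apart in another way, in that its levels varied with gene length. Relative to the LER mean, the median gene of the shortest of 8 length classes was higher by 0.51 on the log2 scale in that library, and the median gene of the longest class had a log2 difference of -0.48.

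Per length of transcript, the members spanned a wide range of levels. The authors' FPKM, which divide by gene length, placed Acta2 on top with a mean of 2433 FPKM over the 9 libraries, the rank of 15 among all 22250 rows. Acta2 encodes smooth muscle alpha-actin, the main thin filament protein of vascular smooth muscle. It was followed by Tagln at 1789 FPKM, Actg2 at 1356 FPKM, Cnn1 at 821 FPKM and Des at 725 FPKM. Myh11 had 290.3 FPKM, Mylk 142 FPKM, Smtn 113 FPKM and Lmod1 41.6 FPKM. Myocd, which encodes a transcription factor rather than a structural protein, was lowest at 2.98 FPKM. Acta2 was above Tagln in all 9 libraries. Tagln was above Actg2 in 7 of 9 libraries and Cnn1 above Des in 7 of 9, so these neighbours did not separate beyond their spread. Each other adjacent pair kept its direction in 9 of 9 libraries. Pairs further apart could still cross: in replicate 2 of LER+LIG, Actg2 at 261.5 FPKM and Cnn1 at 243 FPKM were below Des at 686 FPKM and Myh11 at 338 FPKM.

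**Figure D1:**
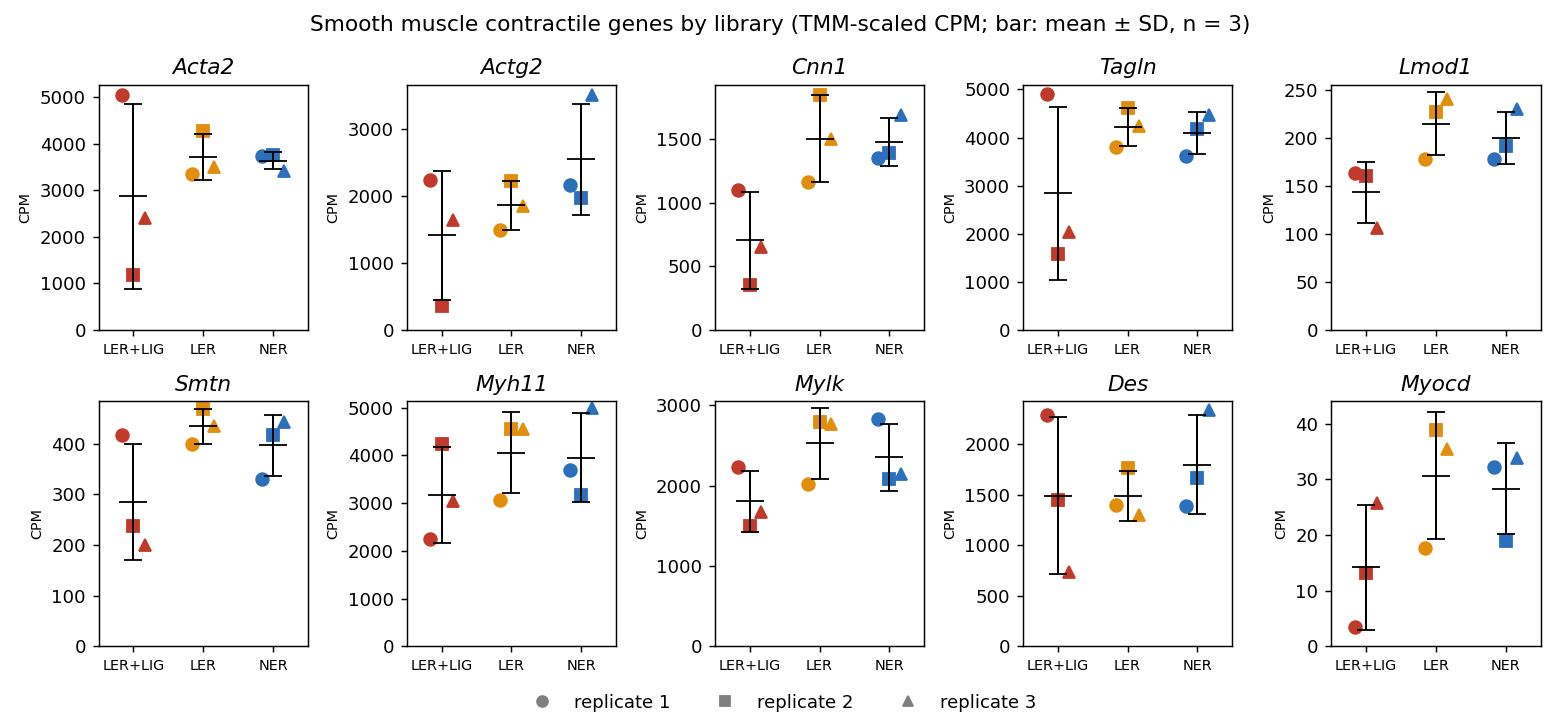
Level of each of the 10 smooth muscle contractile genes in each library, in TMM-scaled CPM on a linear axis from 0 that differs between genes, with LER+LIG left of LER and NER; points are libraries and bars are the mean ± SD of 3 libraries. The 3 LER+LIG points of Acta2 run from 1168 to 5052 CPM, against 3348 to 4277 CPM in LER, whereas those of Mylk run from 1502 to 2233 CPM, against 2014 to 2793 CPM in LER.

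LER was set against NER to see what the drugs given before mating did to the set. No member was called by edgeR's quasi-likelihood test, with calls at p under 0.05 after Benjamini-Hochberg adjustment over all tested genes, and 0% of all tested genes were called. Acta2 averaged 3710.3 ± 497 CPM in the LER libraries, against 3631 ± 186 CPM in the NER libraries (SD, n = 3 each). Cnn1, calponin, which binds actin and dampens myosin's ATPase, averaged 1503 ± 343 CPM in LER, against 1475 ± 189 CPM in NER. Members' groups overlapped in all 10 cases, where 7.15% of tested genes had groups that did not overlap. The 10 fold changes ran from -0.45 ± 0.56 for Actg2 to 0.13 ± 0.29 for Smtn (log2 ± SE), with a median of 0.04 beside -0.02 over all tested genes. Without replicate 2 of LER that median was -0.07. Of the 10 values 2 were below 0, as were 52.9% of all tested genes. Adjusted p from edgeR was 1.00 for each, and 0 members passed an unadjusted p of 0.05, a threshold that 0.871% of tested genes passed. The widest gap was that of Actg2, at 1497, 2225 and 1853 CPM in LER and 2158, 1977 and 3501 CPM in NER, where replicate 3 of NER alone was high. Without that library its log2 fold change was -0.15. DESeq2 called 0.0113% of genes and 0 members in this comparison.

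LER+LIG was set against LER to see what LIG changed in rats that had the same drugs before mating. No member passed the edgeR test here either, with 0% of all tested genes called. Of the 10 members, 9 had a log2 fold change below 0 and 1 at or just above it, and the median was -0.53 beside 0.07 over all tested genes. Without replicate 1 of LER+LIG the median was -0.83, and without replicate 3 it was -0.41. Among all tested genes 45.1% had a fold change below 0. Unadjusted p from edgeR was under 0.05 for 2 members, where 12.5% of tested genes passed and 5.28% passed with a lower level in LER+LIG. The same 2 members, Cnn1 and Lmod1, had LER+LIG libraries that all lay below the LER libraries, as 10.0% of tested genes did. The smallest adjusted p over all 14232 genes was 0.0515.

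Of the thin filament genes, Acta2 had 5052, 1168 and 2392 CPM in the 3 LER+LIG libraries, against 3348, 4277 and 3506 CPM in LER. The groups overlapped, since replicate 1 of LER+LIG was the highest of all 9 libraries and replicate 2 the lowest. The log2 fold change was -0.37 ± 0.45 (edgeR adjusted p = 0.756). Actg2, the gamma-actin of visceral smooth muscle, had 2244, 359.7 and 1636 CPM in LER+LIG, against 1497, 2225 and 1853 CPM in LER. Replicate 2 of LER+LIG was far below the other 8 libraries and replicates 1 and 3 were within the range of the rest. Its log2 fold change was -0.40 ± 0.56 (edgeR adjusted p = 0.792), and it was 0.037 without replicate 2 of LER+LIG, -0.93 without replicate 1 and -0.26 without replicate 2 of LER. Without replicate 2 of LER+LIG the fold change of Acta2 was -0.02, and without replicate 1 of LER+LIG it was -1.09, so either library decides the value. Acta1, the skeletal muscle alpha-actin whose protein sequence is nearly the same as that of Acta2, had 1000.2, 60.7 and 741 CPM in LER+LIG and 897, 1132 and 922 CPM in LER. How reads were assigned between these actins is not given, so the split among them is uncertain.

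Of the proteins that sit on actin, Cnn1 had 1103, 353 and 652 CPM in LER+LIG, against 1163, 1848 and 1497 CPM in LER. All 3 LER+LIG libraries were below all LER libraries, replicate 1 only just. LER+LIG averaged 702 ± 378 CPM and LER 1503 ± 343 CPM (SD, n = 3 each). The log2 fold change was -1.10 ± 0.39 (edgeR adjusted p = 0.361). In the authors' deposited table Cnn1 was the 1 member called in this comparison, as lower, with a log2 fold change of -1.10 and an unadjusted p of 0.0176. Lmod1, at -0.60 with an unadjusted p of 0.0440 there, was not called. The share of all genes that the authors called was not counted, so their call does not single out Cnn1. DESeq2, run on the same counts, gave Cnn1 an adjusted p of 0.151. Tagln, transgelin, a relative of calponin that bundles actin, had 4902, 1577 and 2042 CPM in LER+LIG, against 3809.6, 4607 and 4237 CPM in LER. Replicate 1 of LER+LIG was the highest of the 9 libraries while replicates 2 and 3 were the lowest, and the fold change was -0.57 ± 0.40 (edgeR adjusted p = 0.572). Without replicate 1 it was -1.25 and without replicate 2 it was -0.31, neither of them called.

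Lmod1, leiomodin, which starts new actin filaments in smooth muscle, had 163, 160.4 and 106 CPM in LER+LIG, against 178, 227 and 241 CPM in LER. The 3 LER+LIG libraries were the lowest of the 9, with a mean of 143 ± 32.0 CPM beside 215 ± 33.2 CPM in LER (SD, n = 3 each). The log2 fold change was -0.59 ± 0.24 (edgeR adjusted p = 0.373). Smtn, smoothelin, an actin-binding protein of contractile smooth muscle cells, had 416, 237 and 201 CPM in LER+LIG, against 399.7, 468 and 435 CPM in LER. Replicate 1 was inside the LER range and replicates 2 and 3 were well below it. Its log2 fold change was -0.61 ± 0.29 (edgeR adjusted p = 0.428). It was -1.02 without replicate 1 of LER+LIG and -0.41 without replicate 3.

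Among the myosin genes, Myh11 departed from the actins in replicate 2. Myh11, the smooth muscle myosin heavy chain, had 2246, 4244 and 3052 CPM in LER+LIG, against 3072, 4549.9 and 4547 CPM in LER. Here replicate 1 was the lowest of the 9 libraries and replicate 2, in which the actins were lowest, was within the LER range. The log2 fold change was -0.35 ± 0.32 (edgeR adjusted p = 0.665). It was -0.18 without replicate 1 of LER+LIG, -0.64 without replicate 2 and -0.54 without replicate 1 of LER. Mylk had 2233, 1502 and 1676 CPM in LER+LIG, against 2014, 2793 and 2768 CPM in LER, and replicates 2 and 3 were the lowest of the 9 libraries. Its log2 fold change was -0.49 ± 0.27 (edgeR adjusted p = 0.476).

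Des encodes desmin, the intermediate filament that ties the contractile lattice to the cell's membrane plaques. It had 2288, 1447 and 733 CPM in LER+LIG, against 1397, 1761 and 1301 CPM in LER. LER+LIG averaged 1489 ± 778 CPM and LER 1486 ± 243 CPM (SD, n = 3 each), with a log2 fold change of 0.00 ± 0.40 (edgeR adjusted p = 0.998), because replicate 1 was above LER and replicate 3 below it. Without replicate 1 of LER+LIG it was -0.48, and without replicate 3 it was 0.33. Myocd, the gene of myocardin, had 3.57, 13.2 and 25.8 CPM in LER+LIG, against 17.6, 38.8 and 35.5 CPM in LER. These rest on 43, 194 and 334 reads in LER+LIG and on 259, 579 and 499 reads in LER, and the exact Poisson 95% interval of the lowest value was 2.59 to 4.81 CPM, for counting error only. The low value of replicate 1 is thus far outside counting error, and replicate 3 lay inside the LER range. The log2 fold change of Myocd was -1.11 ± 0.61 (edgeR adjusted p = 0.480), and it was -0.69 without replicate 1 of LER+LIG and -1.86 without replicate 3. Replicate 1, with the lowest Myocd and Myh11, was also the library whose levels varied with gene length, and both genes fall in the longest of the 8 length classes. Mylk, the longest member, is in that class too and at 2233 CPM was inside the LER range. Set against the median gene of the class, the log2 difference of replicate 1 from the LER mean was -2.49 for Myocd, -0.35 for Myh11 and 0.32 for Mylk. For shorter members the difference itself was 0.45 for Acta2, 0.29 for Actg2, -0.42 for Cnn1 and 0.22 for Tagln. The medians of their classes in that library were 0.35 for Acta2, Actg2 and Cnn1 and 0.17 for Tagln. The part of gene length in these values was not tested.

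**Figure D2:**
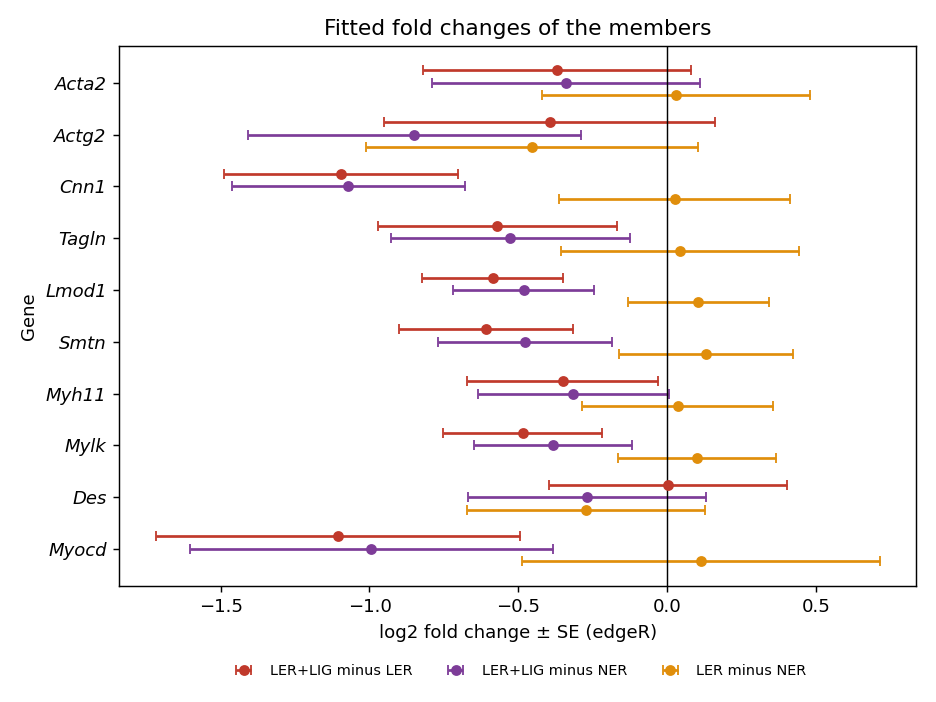
Log2 fold changes of the 10 members with 1 standard error, for LER+LIG against LER, LER+LIG against NER, and LER against NER. No value was called; LER against NER values lie between -0.45 and 0.13, and the LER+LIG values run down to -1.11 for Myocd and -1.10 for Cnn1.

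The 2 comparisons that involve LER+LIG share its libraries, so LER+LIG against NER is given only by its own values. Again no member was called by edgeR, with 0% of tested genes called, and the smallest adjusted p of any gene was 0.384. All 10 fold changes were below 0, where 46.3% of tested genes had one below 0, and the median was -0.48 beside 0.04 over all tested genes. Without replicate 1 of LER+LIG the median was -0.80, and without replicate 3 it was -0.32. Cnn1 averaged 702 ± 378 CPM in LER+LIG, against 1475 ± 189 CPM in NER (SD, n = 3 each). Its log2 fold change was -1.07 ± 0.39 (edgeR adjusted p = 0.868). It was the 1 member with an unadjusted p under 0.05, where 5.45% of tested genes passed. Cnn1 and Lmod1 had LER+LIG libraries all below the NER libraries, as 4.10% of tested genes did. Lmod1 had a fold change of -0.48 ± 0.24, and Actg2 one of -0.85 ± 0.56 with overlapping groups. Lmod1 was at -0.31 without replicate 3 of LER+LIG, and Actg2 at -1.36 without replicate 1, -0.42 without replicate 2 and -0.56 without replicate 3 of NER. DESeq2 called 0 members in either comparison with LER+LIG, beside 1.95% of genes against LER and 0.0981% against NER.

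Leaving out the 3 libraries with high C3 leaves LER+LIG as the single library of replicate 1, which is then assumed to vary as LER and NER do. In that fit the log2 fold changes against LER were 0.41 for Acta2, 0.24 for Actg2 and 0.19 for Tagln, and -0.88 for Myh11 and -3.13 for Myocd. With LER+LIG as 1 library, calls from that fit are not read as results about the members. The values describe that 1 library, in which levels varied with gene length. The median of the members against LER was then -0.15.

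For each of the 10 members, the SD of log2 CPM over 3 libraries was larger in LER+LIG than in LER and in NER, as it was for 66.1% of all tested genes. The excess ranged from small to wide: Mylk had an SD of 0.30 in LER+LIG beside 0.27 in LER and 0.24 in NER, and Actg2 had 1.41 beside 0.29 and 0.44. The median SD of the members was 0.82 in LER+LIG, 0.25 in LER and 0.24 in NER, beside 0.58, 0.22 and 0.35 over all tested genes. For each member the lowest of the 9 libraries was a LER+LIG library, which held for 56.9% of tested genes. The lowest library was replicate 2 for 5 members, replicate 3 for 3 and replicate 1 for 2. Members vary together, so these counts are not 10 separate observations. Only 2 members, Acta2 and Tagln, had their highest value in a LER+LIG library, where 55.0% of tested genes did.

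**Figure D3:**
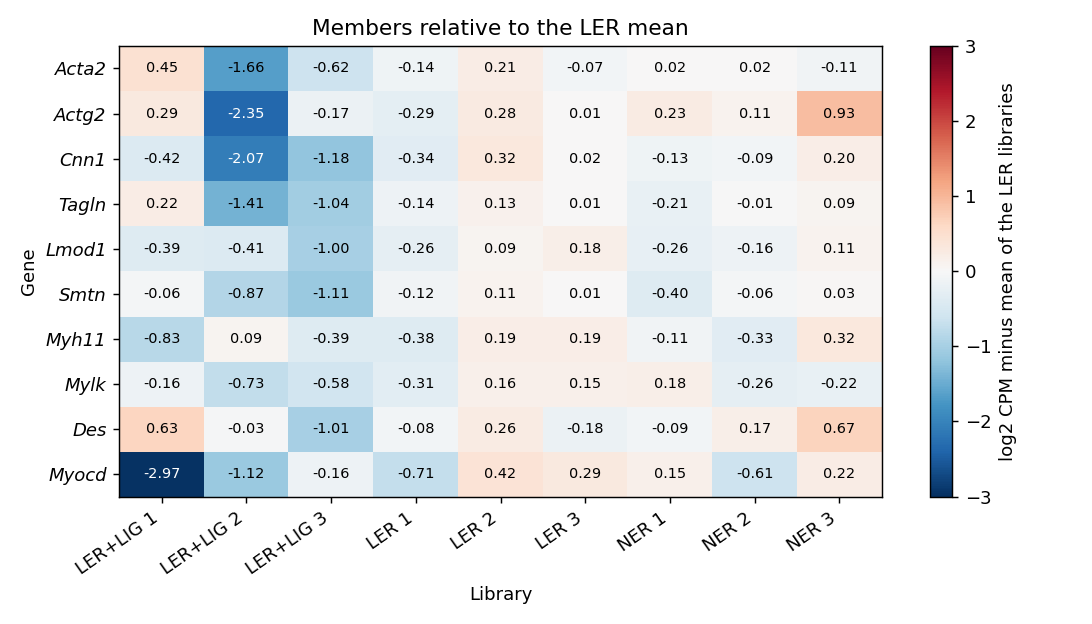
Log2 difference of each member in each library from the mean of the 3 LER libraries, with LER+LIG libraries first. Replicate 1 of LER+LIG is low for Myocd at -2.97 and high for Des at 0.63; replicate 2 is low for Actg2 at -2.35 and Cnn1 at -2.07 but not for Myh11 at 0.09; replicate 3 is low for most members.

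The LER+LIG libraries differed in which members were lowest, although replicates 2 and 3 shared low values of Cnn1, Tagln, Smtn and Mylk. In replicate 1 the median member was close to the LER mean, with a log2 difference of -0.11, yet the members ranged from -2.97 for Myocd to 0.63 for Des. In replicate 2 the median was -0.996, with Actg2 at -2.35, Cnn1 at -2.07, Acta2 at -1.66 and Tagln at -1.41, while Myh11 was at 0.09 and Des at -0.03. In replicate 3 the median was -0.81 and the members ranged less widely, from -1.18 for Cnn1 to -0.16 for Myocd. The distance between the highest and the lowest member was 3.60, 2.44 and 1.02 in the 3 LER+LIG libraries, 0.33 to 0.64 in LER libraries and 0.63 to 1.15 in NER libraries.

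Ratios between members show the same change of proportion within a library, where the scaling between libraries drops out. The log2 ratio of Myh11 to Acta2 in CPM was -1.17, 1.86 and 0.35 in LER+LIG, against -0.12, 0.09 and 0.37 in LER and -0.01, -0.24 and 0.55 in NER. The first 2 LER+LIG libraries lay outside the range of the other groups on opposite sides. For Des to Acta2 it was -1.14, 0.31 and -1.71 in LER+LIG, against -1.26, -1.28 and -1.43 in LER and -1.43, -1.18 and -0.55 in NER, with replicate 2 of LER+LIG again the highest. The ratio of Myh11 to Cnn1 was 1.03, 3.59 and 2.23 in LER+LIG, against 1.40, 1.30 and 1.60 in LER and 1.46, 1.20 and 1.56 in NER. For Actg2 to Acta2, the visceral to the vascular type of actin, it was -1.17, -1.70 and -0.55 in LER+LIG, against -1.16, -0.94 and -0.92 in LER and -0.79, -0.92 and 0.04 in NER. The 4 ratios varied least over LER libraries, more over NER libraries and most over LER+LIG libraries. For Actg2 to Acta2 the range in NER, -0.92 to 0.04, was nearly as wide as that in LER+LIG, -1.70 to -0.55. The part of gene length or of the cells sampled in this was not tested. These ratios compare CPM of genes of different length, so only their differences between libraries can be read.

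**Figure D4:**
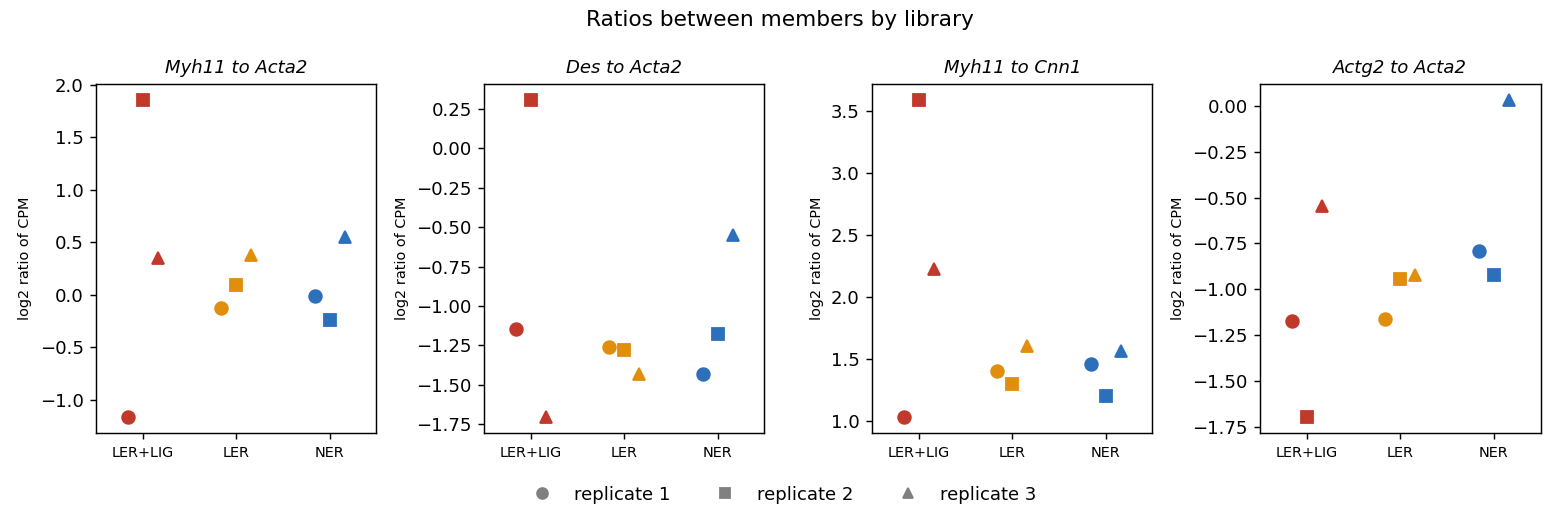
Log2 ratio of the CPM of pairs of members in each library, LER+LIG left of LER and NER. The ratio of Myh11 to Acta2 runs from -1.17 to 1.86 over LER+LIG libraries and from -0.12 to 0.37 over LER libraries.

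Genes that work beside the members were read from 5 lists. None of their tested genes was called by edgeR in any comparison. Of 23 other genes of filaments, dense bodies and adhesions, 21 were lower and 2 higher in LER+LIG than in LER by the sign of the fold change alone, with a median of -0.46, where 45.1% of all tested genes were lower. Of the 23, 3 had an unadjusted p under 0.05 by edgeR and were lower, where 5.28% of all tested genes did so. They were Actn1, Synm and Jph2, named after their values were seen, with fold changes of -0.70, -0.64 and -1.30. In LER against NER, 14 were lower and 9 higher, with a median of -0.05, where 52.9% of all tested genes were lower. Myl9, a regulatory light chain of smooth muscle myosin, had 1236, 544 and 600.0 CPM in LER+LIG, against 1139, 1378 and 1567 CPM in LER, a log2 fold change of -0.78 ± 0.37 (edgeR adjusted p = 0.425). Replicates 2 and 3 were low and replicate 1 was within the LER range, as for Smtn. Tpm1, a tropomyosin that lies along actin, had 2238, 714 and 1344 CPM in LER+LIG, against 1795, 2206 and 2047 CPM in LER, a fold change of -0.49 ± 0.38. Csrp1, a LIM protein of the actin cytoskeleton, had one of -0.30 ± 0.41. Flna, filamin A, which cross-links actin, had 1749, 1439 and 2884 CPM in LER+LIG, against 2496, 3917 and 3313 CPM in LER, a fold change of -0.68 ± 0.33.

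Of 8 tested regulators of the set, 5 were lower and 3 higher in LER+LIG than in LER, with a median of -0.18. Among all tested genes 45.1% were lower. Srf, the gene of serum response factor, had 155, 102 and 145 CPM in LER+LIG, against 238, 268 and 205 CPM in LER and 223, 216 and 233 CPM in NER. All 3 LER+LIG libraries were below the other 6, and they differed less among themselves than did those of Myocd. The log2 fold change of Srf against LER was -0.83 ± 0.22 (edgeR adjusted p = 0.334). Klf4, a repressor of the contractile genes, had 40.0, 21.6 and 190.1 CPM in LER+LIG, against 59.5, 54.7 and 50.9 CPM in LER and 56.7, 48.6 and 294 CPM in NER. It was high in replicate 3 of LER+LIG and replicate 3 of NER, both among the libraries with high C3. Replicate 2 of LER+LIG, which had the highest C3, had the lowest Klf4 of the 9 libraries. The fold changes of Mef2a and Mef2d, MEF2 factors that also drive muscle genes, were -0.17 ± 0.32 and 0.13 ± 0.45.

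The pathways that set the sensitivity to calcium and its supply gave mixed signs. Of 11 tested genes of calcium sensitisation and light chain dephosphorylation, 8 were higher and 3 lower in LER+LIG than in LER, with a median of 0.29. Among all tested genes 45.1% were lower. Of the 11, 1 in each direction had an unadjusted p under 0.05 by edgeR. That threshold was passed by 12.5% of all tested genes, and by 5.28% with a lower level in LER+LIG. Rhoa, the GTPase that inhibits light chain phosphatase through its kinase, had 1225, 612 and 928 CPM in LER+LIG, against 629, 609.8 and 634 CPM in LER, a log2 fold change of 0.56 ± 0.27 (edgeR adjusted p = 0.423). Ppp1cb, the catalytic subunit of that phosphatase, had a fold change of 0.44 ± 0.29. Ppp1r12b, a targeting subunit of the phosphatase, had 154, 325 and 398 CPM in LER+LIG, against 373, 629 and 595 CPM in LER, a fold change of -0.86 ± 0.36 (edgeR adjusted p = 0.389).

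Of 20 genes of calcium handling and contractile receptors, 11 were lower and 9 higher in LER+LIG than in LER, with a median of -0.06. Among all tested genes 45.1% were lower. Gja1, connexin 43, which couples uterine muscle cells, had 109, 183 and 205 CPM in LER+LIG, against 72.2, 103 and 94.9 CPM in LER and 132, 104 and 269 CPM in NER. Its log2 fold change against LER was 0.88 ± 0.38 (edgeR adjusted p = 0.395), and stromal cells of the endometrium express it as well. Atp2b4, a calcium pump of the cell membrane, had a fold change of -0.61 ± 0.33, Atp2a2, the calcium pump of the reticulum, -0.11 ± 0.21, and Itpr1, a calcium release channel, -0.02 ± 0.48. Of 12 genes of caveolae and membrane attachment, 7 were lower and 5 higher, with a median of -0.11, beside the same 45.1% of all tested genes lower. Cavin1, which builds the coat of caveolae, had 1306, 864 and 742 CPM in LER+LIG, against 1709.8, 1708 and 1394 CPM in LER, a fold change of -0.72 ± 0.27 (edgeR adjusted p = 0.364). Its partner Cav1 had -0.14 ± 0.29, Cavin2 0.07 ± 0.40 and Itgb1, an integrin chain, -0.08 ± 0.28.

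Other cell types were measured by fixed marker lists, as summed CPM, and their part in the members' values was not tested. Stromal and epithelial markers, which define endometrium, were present in all 9 libraries. The 8 stromal markers found summed to 8645 to 44366 CPM in LER+LIG, 27564 to 42241 CPM in LER and 32833 to 39578 CPM in NER. The low sum was that of replicate 2 of LER+LIG, where the collagen genes Col1a1 and Col3a1 had 2073 and 1840.4 CPM, against at least 14659 and 7204 CPM in the other 8 libraries. Dcn, decorin, was not low there, at 2369 CPM in that library against 1523 to 2619.8 CPM in LER. That is also the library with the lowest Acta2, Actg2, Cnn1 and Tagln. The 13 epithelial markers summed to 819, 2739 and 2307 CPM in LER+LIG, against 1599, 1529 and 925 CPM in LER and 766, 1102 and 4086 CPM in NER. The 9 leukocyte markers summed to 451, 825 and 1111 CPM in LER+LIG, against 387, 308 and 427 CPM in LER and 348, 291 and 1189 CPM in NER. Both sums were high in the 3 libraries with high C3. The summed level of the members in those libraries was 11061 and 12517 CPM in replicates 2 and 3 of LER+LIG and 23266 CPM in replicate 3 of NER.

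The 12 pericyte and mural cell markers summed to 618 to 1030.4 CPM in LER+LIG, 941 to 1090.1 CPM in LER and 782 to 1021 CPM in NER. Of the 12, 6 were lower and 6 higher in LER+LIG than in LER, where 45.1% of all tested genes were lower. By edgeR 4 were lower with an unadjusted p under 0.05 and 0 higher, where 5.28% of all tested genes were lower with such a p. The median marker had log2 differences from the LER mean of -0.63, -0.49 and -0.67 in LER+LIG. They were -0.04, 0.08 and 0.01 in LER and -0.02, 0.01 and -0.45 in NER. Of the most abundant, Mcam had a log2 fold change of -1.02 ± 0.21 and Pdgfrb one of 0.48 ± 0.42. Rgs5, a marker of pericytes, had 54.7, 95.7 and 74.9 CPM in LER+LIG, against 99.3, 112 and 148 CPM in LER. The 9 endothelial markers found summed to 621 to 629.6 CPM in LER+LIG, 649.9 to 784 CPM in LER and 508 to 787 CPM in NER. The 5 genes listed as markers of mesothelium, the outer coat of the uterus, summed to 158 to 207 CPM in LER+LIG, 205 to 220.0 CPM in LER and 116 to 223 CPM in NER. Wt1 had the highest mean of the 5, at 122 CPM over the 9 libraries, so the sum is weighted towards it. Whether the sum follows that coat was not tested. By sign 4 of the 5 were lower in LER+LIG than in LER and 1, Upk1b, was higher. The median marker had log2 differences from the LER mean of -2.09, -0.25 and -1.08 in LER+LIG. They were 0.29, -0.23 and -0.11 in LER and 0.15, 0.20 and -0.31 in NER. Adipocyte and Schwann cell markers summed to at most 140.3 and 31.9 CPM outside replicate 1 of LER, where they summed to 972 and 101 CPM. Acta1 made up most of the striated muscle list, and its other members had at most 27.6 CPM in any library, with Myh7 at 0 in all 9.

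**Figure D5:**
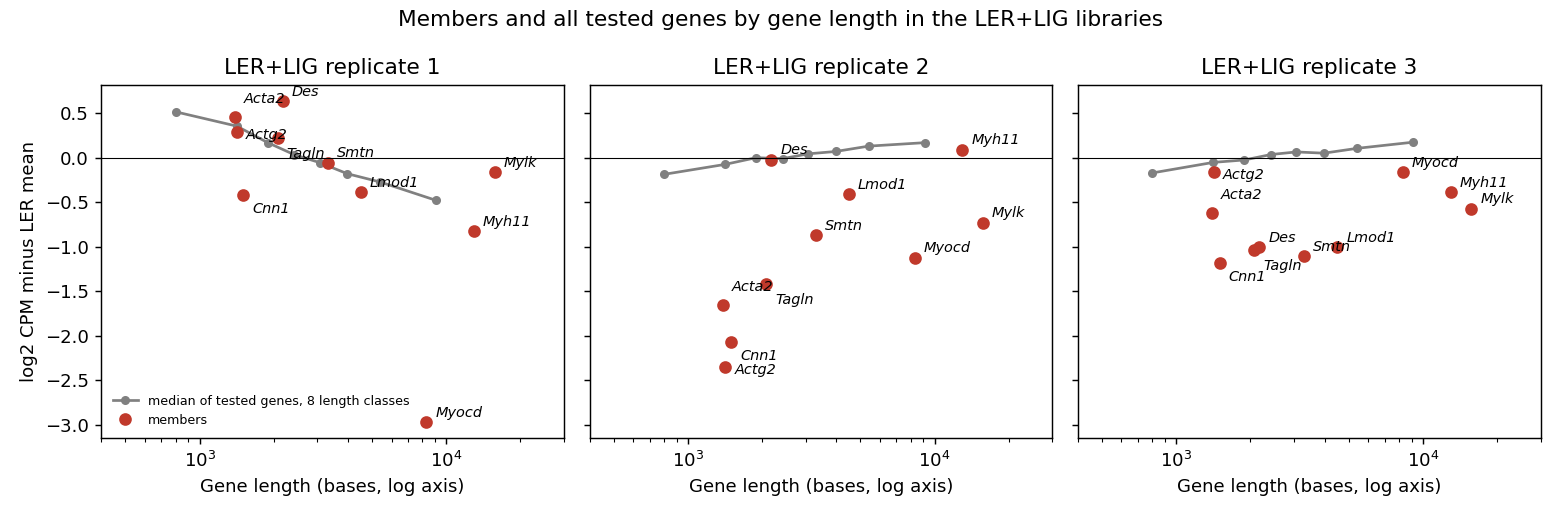
Log2 difference from the LER mean for each member in the LER+LIG libraries against gene length in bases on a log axis, with the medians of all tested genes in 8 length classes as a line. In replicate 1 the class medians go from 0.51 for the shortest genes to -0.48 for the longest, and Myocd lies far below its class.

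Likeness over the 9 libraries was measured by Pearson's r between a gene's log2 CPM and the mean of the members' standardised log2 CPM, as a description without a test, since the libraries share groups and depth differences. Among 10052 other tested genes with a mean of at least 10 CPM, the 8 most alike were Myl9 (r = 0.95), Reep2, Tceal3, Dzip1l, Fblim1, Dmpk, Numbl and Zswim3 (r = 0.90). Only 10 of the candidates exceeded 0.9. Fblim1, a filamin-binding protein of adhesion sites, averaged 143 CPM over the 9 libraries, and Dmpk, a protein kinase of muscle, averaged 389 CPM. Of the members themselves, Cnn1 tracked the mean most closely at 0.96, then Smtn at 0.91 and Tagln at 0.90. Myh11 at 0.36 and Myocd at 0.38 tracked it least, and Des stood at 0.58. Each member is part of the mean it is set against, so these values are upper readings of likeness.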

How the data were processed

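The deposited expression table gives whole-number read counts per gene and library with rat Ensembl identifiers and symbols, per the file headers. The authors also deposited FPKM in the same table, and these equalled counts divided by gene length and library total. The authors' deposited comparison table holds log2 fold changes and unadjusted p-values for LER against NER and LER+LIG against LER. The aligner, counter, strand setting, genome build and the authors' test were not given in the sources used here. Groups and replicate numbers came from the sample titles.

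The counts entered edgeR 4.0.16 in R 4.3.3: filterByExpr, TMM scaling with factors of 0.867 to 1.05, 1 dispersion fit over all 9 libraries, and the quasi-likelihood test with Benjamini-Hochberg adjustment over 14232 genes. SE is the log2 fold change divided by the root of F. Log2 CPM used a prior count of 2. The 8 rows that name no gene held at most 0.0031% of reads. DESeq2 1.42.0 was an alternative, beside other scalings, no filter, 2-group fits, a replicate block and leaving out libraries. The script was tested on simulated counts drawn with a lower dispersion than the fitted one. How often it would call a true change in these data was therefore not measured. All pairs of libraries differed beyond sampling noise, with chi-square per degree of freedom of at least 18.4. Members, related lists and marker lists were chosen with earlier results of these data known. Symbols found 172 of the 180 genes listed, an older symbol found 1, and 7 had no row. From each related list the 4 tested genes with the highest mean CPM were named, except 1 that is not reported here, and from the likeness measure the 8 highest. Promoter windows came from RefSeq, assembly GRCr8.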

Additional observations from a re-analysis of the deposited data

How the results depend on the processing

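In LER against NER, LER+LIG against LER and LER+LIG against NER, no member was called under any alternative except the fit without the 3 libraries of high C3. Over all alternatives, 499 of the member fold changes kept their direction and side of the threshold, 3 became called and 38 changed sign. DESeq2's Wald test called 2, 299 and 15 of all genes in the 3 comparisons, in that order. For LER+LIG against LER, all genes called numbered 1 with upper-quartile scaling, with no filter on low counts, at an adjusted p under 0.1, and with the gene length trend removed, an alternative chosen after seeing the data. Leaving out 1 library gave 0 to 1 calls over all genes. Without the 3 libraries (NER 3, LER+LIG 2 and 3), LER+LIG against LER called 3922 genes and 2 members with a member median of -0.15, and LER+LIG against NER called 2731 genes and 1 member, Myocd at -2.87, with a median of -0.041. That fit changed the sign of Acta2 in LER against NER (-0.011), of Acta2 (0.41), Actg2 (0.24) and Tagln (0.19) in LER+LIG against LER, and of Acta2 (0.40), Actg2 (0.087), Tagln (0.30), Des (0.56) and Smtn (0.13) in LER+LIG against NER. The fewer libraries are part of its construction, and the cause was not otherwise tested.

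Des, at 0.00 in LER+LIG against LER, became -0.012 with DESeq2 size factors, -0.048 with upper-quartile scaling, -0.014 with the DESeq2 test, -0.033 with no filter, and -0.0087 with only the 2 groups compared. With the replicate number as a block no member was called, the member medians were 0.05, -0.60 and -0.50 in the 3 comparisons, Myocd was -0.018 in LER against NER and Des -0.043 in LER+LIG against LER. The correlations of same-numbered deviations ran from -0.19 to 0.51 over the 3 comparisons, and those of different numbers from -0.55 to 0.53. In LER+LIG against LER they were 0.19, 0.11 and 0.07 for the same number, against -0.13 to 0.06 for different numbers. These values do not settle whether the numbers pair the libraries. Leaving out each library in turn gave, for LER against NER, Acta2 -0.086 to 0.10, Cnn1 -0.15 to 0.18, Myh11 -0.10 to 0.24, Tagln -0.035 to 0.11 and Myocd -0.11 to 0.39. For LER+LIG against LER it gave Actg2 -0.93 to 0.037 and Des -0.48 to 0.33. For LER+LIG against NER it gave Acta2 -1.04 to 0.00995 and Des -0.73 to 0.056. Member medians then ran from -0.07 to 0.19, -0.83 to -0.41 and -0.80 to -0.32, and the smallest adjusted p of any member was 0.134. Summing rows of a repeated symbol changed nothing, since no member's symbol was repeated.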
